A study of Homo sapiens with 6 samples.

Results

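EDA2R, EMP2 and the midline ubiquitin ligases MID1 and MID2 were followed across SKOV-3, OVCAR-3 and ES-2, which are 3 lines grown from human ovarian cancers. The 4 genes were read by 5 probe sets among the 53617 of the array, 1 each for EDA2R, MID1 and MID2 and 2 for EMP2. They were chosen by their response in these same data: EDA2R, EMP2 and MID1 had lower signal after transfection with miR-135a-3p in ES-2 and OVCAR-3 but not in SKOV-3, while MID2, the paralog of MID1, had higher signal. Each line was transfected with miR-135a-3p or with miR-blank, the control, and gave 1 array per transfection, so 3 arrays stand on each side and the lines are the replicates. The labels give no allele, dose, harvest time or form of the transfected RNA, and do not say whether the arrays came from separate cultures. Values are normalised log2 signals, on which a step of 1 is a 2-fold change, and a difference after transfection is miR-135a-3p minus miR-blank. In a bulk sample, fewer cells that carry a transcript and less of it per cell cannot be told apart.

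EDA2R is a receptor of the TNF receptor superfamily that binds the A2 form of ectodysplasin (EDA) and signals through TRAF adaptors to NF-kB and JNK, and it is a known transcriptional target of p53. EMP2 is a membrane protein with 4 membrane-spanning segments of the PMP22 family that acts on integrin, focal adhesion kinase and caveolin traffic, and it has been studied as a surface antigen of endometrial and ovarian tumours. MID1 and MID2 are RING finger ubiquitin ligases of the TRIM family that bind microtubules through a COS box. MID1 joins the alpha4 protein (IGBP1) to bring about turnover of the catalytic subunit of protein phosphatase 2A, and loss of MID1 causes X-linked Opitz syndrome. A microRNA guides silencing complexes to transcripts that pair with its seed, bases 2 to 8 from its 5′ end.

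The mature RNA named on the labels is shown beside the 3p arms of the related hairpins, because the arms differ in the seed. The sequences are those of RefSeq on GRCh38.p14, 5′ to 3′, with the seed in capitals.
hsa-miR-135a-3p (chr3:52294232-52294253, minus strand): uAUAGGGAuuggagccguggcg
hsa-miR-135a-2-3p (chr12:97563872-97563893, plus strand): aUGUAGGGauggaagccaugaa
hsa-miR-135b-3p (chr1:205448323-205448344, minus strand): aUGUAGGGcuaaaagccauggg
The arms of MIR135A2 and MIR135B share 1 seed. Compared position by position, only 2 of its 7 positions hold the same base as the seed of miR-135a-3p. Both seeds hold the stretch UAGGG, shifted by 1 base. The probe set of MIR135A1, the hairpin gene that gives miR-135a-3p, read 12.57 for ES-2, 12.20 for OVCAR-3 and 11.58 for SKOV-3 after miR-135a-3p, against 1.75, 2.26 and 2.07 after miR-blank. No array read the MIR135A2 or MIR135B probe set below 1.62 or above 3.56. The hairpin signal was thus high after miR-135a-3p in all 3 lines. The probe set reads the hairpin gene and does not give the level of the mature RNA. Transcript sequences were not used here, so seed sites in the 4 genes were not examined.

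The promoters of the 4 genes are shown because 3 of them had lower signal in the same lines while MID2 had higher signal. Each window runs from 250 bases before to 50 after the first start that RefSeq lists for the gene on GRCh38.p14, read 5′ to 3′ on the gene's strand. RefSeq lists 2 starts for EDA2R, 1 for EMP2, 4 for MID1 and 2 for MID2, and the array does not tell which start was used. Capitals mark matches, on either strand, to the GC box GGGCGG, the CCAAT box CCAAT, the TATA motif TATAA, the E box CACGTG, the AP-1 motif TGANTCA and, by its name, the p53 decamer.
EDA2R (chrX:66639220-66639519, minus strand): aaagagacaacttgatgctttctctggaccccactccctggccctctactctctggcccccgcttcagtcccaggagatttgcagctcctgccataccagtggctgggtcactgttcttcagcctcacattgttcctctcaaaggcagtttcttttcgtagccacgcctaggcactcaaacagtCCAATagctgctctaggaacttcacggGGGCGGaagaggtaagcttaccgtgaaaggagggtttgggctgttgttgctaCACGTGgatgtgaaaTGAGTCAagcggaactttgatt
EMP2 (chr16:10580549-10580848, minus strand): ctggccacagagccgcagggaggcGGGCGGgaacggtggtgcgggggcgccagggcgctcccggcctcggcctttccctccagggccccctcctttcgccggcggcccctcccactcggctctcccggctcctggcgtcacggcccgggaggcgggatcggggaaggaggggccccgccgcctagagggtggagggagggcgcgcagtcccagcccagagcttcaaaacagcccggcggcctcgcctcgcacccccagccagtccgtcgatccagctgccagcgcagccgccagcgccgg
MID1 (chrX:10833634-10833933, minus strand): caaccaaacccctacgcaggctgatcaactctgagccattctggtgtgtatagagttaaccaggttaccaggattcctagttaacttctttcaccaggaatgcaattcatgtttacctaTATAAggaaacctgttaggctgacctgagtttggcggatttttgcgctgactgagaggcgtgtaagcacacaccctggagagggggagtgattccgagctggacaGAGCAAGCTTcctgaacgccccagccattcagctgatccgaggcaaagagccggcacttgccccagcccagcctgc
MID2 (chrX:107825485-107825784, plus strand): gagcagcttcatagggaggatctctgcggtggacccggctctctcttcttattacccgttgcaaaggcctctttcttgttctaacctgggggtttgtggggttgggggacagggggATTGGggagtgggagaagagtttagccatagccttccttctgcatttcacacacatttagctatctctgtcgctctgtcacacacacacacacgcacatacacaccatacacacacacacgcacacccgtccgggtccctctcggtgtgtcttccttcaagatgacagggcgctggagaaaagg
With the start counted as base 1, the EDA2R window held a CCAAT box at −66 to −62, a GC box at −39 to −34, an E box at 14 to 19 and an AP-1 motif at 29 to 35, with no overlaps. The EMP2 window held a GC box at −226 to −221. The MID1 window held a TATA motif at −131 to −127 and a p53 decamer at −26 to −17, and the MID2 window a CCAAT box at −134 to −130 on the other strand. Among 35114 promoter windows of the same length, 45% held a GC box, 34.6% a CCAAT box, 20.4% the TATA motif, 7.26% the E box, 7.71% the AP-1 motif and 6.63% a p53 decamer. No motif was found in all 3 windows of EDA2R, EMP2 and MID1. The EMP2 window was 77.0% G and C, against 52.3% for EDA2R, 52.3% for MID1 and 54.0% for MID2, and the median of all windows was 58.7%. These are matches of letters, not binding sites.

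Across the series, array medians lay between 4.16 and 4.23, and the table holds no detection calls, so a signal near the median could not be told from background. A total of 8620 genes with a mean signal of at least 5 were tested, and all 4 genes passed that filter. EDA2R met it through the miR-blank arrays of ES-2 (6.65) and OVCAR-3 (6.81). Its mean over the 3 miR-135a-3p arrays was 4.63, under the limit. The place of EDA2R among the tested genes thus rests on signals that also set its choice. The scatter of the transfection difference over the 8620 genes had an SD of 0.30 for ES-2, 0.30 for OVCAR-3 and 0.48 for SKOV-3. Of 5 named epithelial markers KRT18 stood clear of the array medians in every line, between 9.36 and 10.47. KRT8 was at 5.29 or above in every line, KRT19 at 5.20 or below, and CLDN4 between 3.56 and 5.25. EPCAM read 3.78 to 4.32, near the array medians, in every line. PAX8, a Mullerian marker, read 8.12 and 8.80 in SKOV-3 and at most 4.80 in ES-2 and 4.33 in OVCAR-3, near the array medians. The other named ovarian markers, WT1, MSLN, SOX17 and FOLR1, read between 4.69 and 5.95 in OVCAR-3. They read between 4.86 and 5.72 in ES-2 and between 4.87 and 7.15 in SKOV-3. OVCAR-3 is known as an epithelial line that carries EPCAM and PAX8, so the arrays labelled OVCAR-3 go against that label on both markers. EPCAM does not set OVCAR-3 apart, since it was near the medians in every line. KRT18 and KRT8, above the medians in every line, do not go against an epithelial line. The mesenchymal markers VIM (5.08 to 5.54) and SNAI2 (4.70 to 4.94) were lower in OVCAR-3 than in the other lines, while ZEB1 (6.86) was near them. The label was not tested, and every value given for OVCAR-3 rests on it as deposited. Of the markers of other cell types, the macrophage gene CD68 reached 10.40 for ES-2, 7.68 for OVCAR-3 and 10.20 for SKOV-3. In SKOV-3, CD68 was at 10.20 after miR-135a-3p and at 7.96 after miR-blank. Of 4 named mesenchymal markers, VIM reached 10.85, FN1 11.34 and SNAI2 10.87 in ES-2. FN1 was at 6.63 after miR-135a-3p and 4.41 after miR-blank in OVCAR-3, and SNAI2 at 10.57 after miR-135a-3p and 8.47 after miR-blank in SKOV-3. The part of these markers in the results was not tested. TYROBP and the named endothelial and fibroblast markers stayed at or below 5.87.

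EDA2R, the receptor of the set, had the lowest differences. Its signal was 4.34 for ES-2, 5.15 for OVCAR-3 and 4.40 for SKOV-3 after miR-135a-3p, against 6.65, 6.81 and 4.53 after miR-blank. It was thus high on the miR-blank arrays of ES-2 and OVCAR-3 and low on the other 4 arrays, and the groups overlap because SKOV-3 was low under both transfections. The differences were −2.31 for ES-2, −1.66 for OVCAR-3 and −0.13 for SKOV-3, which is 4.98-fold, 3.17-fold and 1.10-fold lower. After miR-135a-3p, EDA2R lay 0.11 above the array median in ES-2, which leaves the size of that difference uncertain, and 0.92 above it in OVCAR-3. On the SKOV-3 arrays it lay 0.23 and 0.33 above the median after miR-135a-3p and miR-blank. The ES-2 signal after miR-135a-3p was therefore near the level of SKOV-3 without the microRNA. With SKOV-3 this near the median, the size of its difference is uncertain, and the reason for it was not tested.

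EMP2, the membrane protein, was lower by similar amounts in the same lines. Its brighter probe set read 6.94 for ES-2, 5.16 for OVCAR-3 and 7.25 for SKOV-3 after miR-135a-3p, against 8.41, 6.75 and 7.27 after miR-blank. The differences were −1.47, −1.59 and −0.02, or at least 2.78-fold lower in ES-2 and in OVCAR-3. Unlike EDA2R, EMP2 was well above the array median in SKOV-3, by 3.09 after miR-135a-3p and 3.07 after miR-blank, so its difference near 0 there was read at a signal clear of the median. The dimmer probe set read 5.04 for ES-2, 3.14 for OVCAR-3 and 5.45 for SKOV-3 after miR-135a-3p, against 6.44, 4.76 and 5.47 after miR-blank. Its differences were −1.40, −1.62 and −0.02, and no line's difference moved by more than 0.07 between the probe sets, while their signals lay 1.80 to 2.02 apart. On the OVCAR-3 array with miR-135a-3p the dimmer set lay at −1.08 relative to the array median, so its difference of −1.62 was not shown to be above background. Whether the 2 sets share probes is not given in the sources used here.

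MID1, the ligase linked to Opitz syndrome, read 7.09 for ES-2, 3.87 for OVCAR-3 and 7.14 for SKOV-3 after miR-135a-3p, against 8.25, 5.21 and 6.56 after miR-blank. It had lower signal in ES-2 (−1.16, 2.23-fold) and OVCAR-3 (−1.34, 2.53-fold) and higher signal in SKOV-3 (0.59). In OVCAR-3 the array with miR-135a-3p lay at −0.36 relative to the array median, which leaves the size of this difference uncertain. In SKOV-3, 716 of the 8620 genes tested had a higher difference than MID1, so its difference there lay well within the range of other genes of that line.

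MID2, the paralog, went the other way. Its signal was 4.78 for ES-2, 7.30 for OVCAR-3 and 7.28 for SKOV-3 after miR-135a-3p, against 4.42, 6.43 and 6.79 after miR-blank. The differences were 0.36, 0.88 and 0.49, or 1.29-fold to 1.83-fold higher, and all were under 2-fold. In ES-2, MID2 lay 0.55 and 0.21 above the array median after miR-135a-3p and miR-blank, so its difference there was not shown to be above background. Of the 8620 genes tested, 498 had a higher difference than MID2 for ES-2, 33 for OVCAR-3 and 1031 for SKOV-3. For ES-2 and SKOV-3 the MID2 difference thus lay within the range of other genes of the line. By sign alone, the midline ligases were opposite for ES-2 and OVCAR-3 and alike for SKOV-3. Only for OVCAR-3 did the MID2 side of this comparison stand out, and there MID1 fell below the array median after miR-135a-3p.

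**Figure D1:**
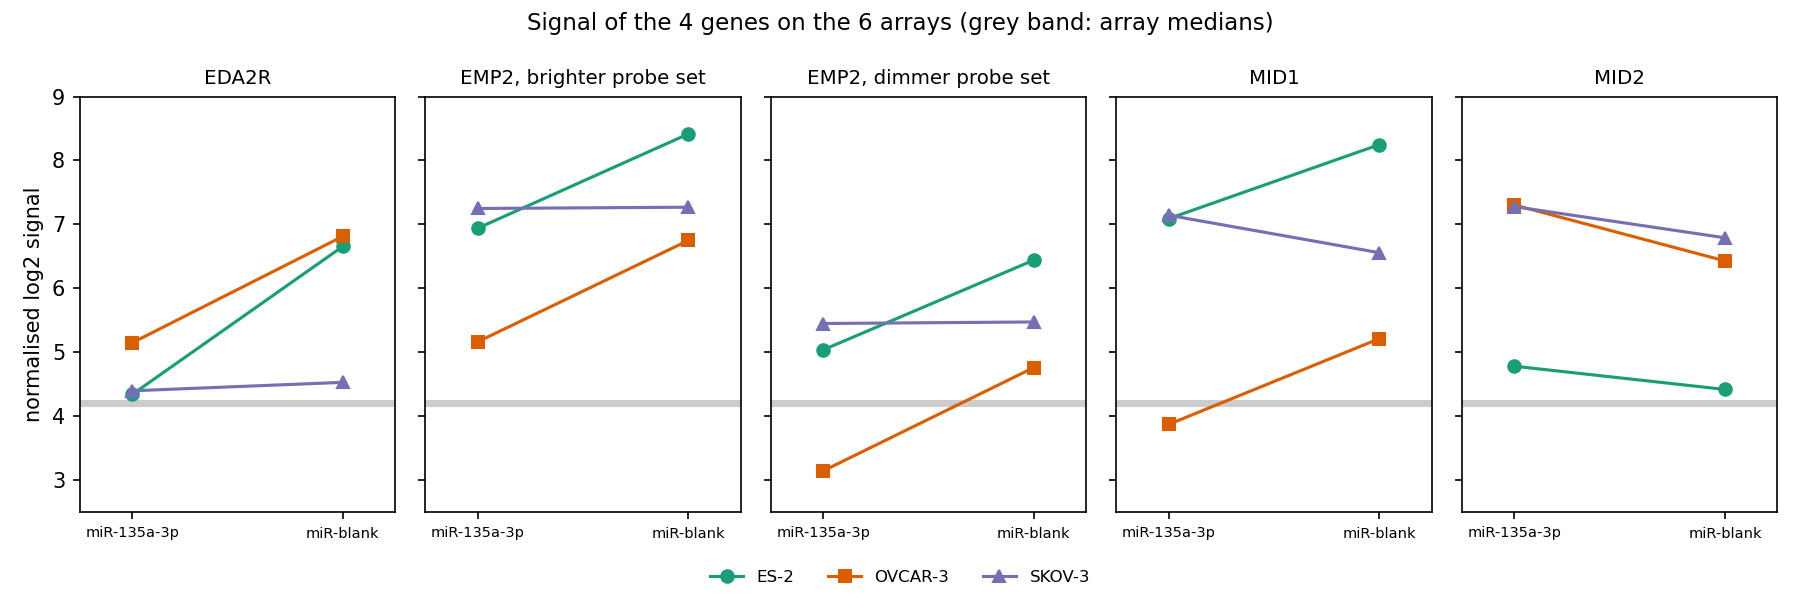
Normalised log2 signal (vertical axis) of EDA2R, both EMP2 probe sets, MID1 and MID2 after miR-135a-3p (left) and miR-blank (right), 1 point per array, with a line joining the 2 arrays of each cell line and a grey band for the array medians, 4.16 to 4.23. EDA2R, EMP2 and MID1 are lower after miR-135a-3p in ES-2 and OVCAR-3, SKOV-3 is flat for EDA2R and EMP2, and MID2 is higher after miR-135a-3p in every line.

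Over the 3 lines, the mean difference was −1.37 ± 1.12 for EDA2R, −1.03 ± 0.87 for EMP2, −0.64 ± 1.06 for MID1 and 0.58 ± 0.27 for MID2 (SD, n = 3 lines each). SKOV-3 was the line nearest to 0, or opposite in sign, for the first 3 of these genes. Without it the means were −1.99 for EDA2R, −1.53 for EMP2 and −1.25 for MID1, and the mean of MID2 was 0.62. Without ES-2, EDA2R had −0.90 and MID1 −0.38, and without OVCAR-3 MID1 had −0.29. Because the genes were chosen on this contrast, these values describe them and no test is given.

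Only 3 of 8620 genes, 0.0348%, were 2-fold lower or more in OVCAR-3 and in ES-2 alike, and these were EDA2R, EMP2 and MID1. By the smaller of the 2 differences, MID1 was the last inside this limit at −1.16. DLX5, a homeobox factor, was the first outside it, at −0.87 for ES-2, −1.66 for OVCAR-3 and 0.12 for SKOV-3. IQGAP2, a scaffold protein, followed with −0.90, −0.83 and 0.03 and KCTD12 with −0.81 for ES-2, −0.82 for OVCAR-3 and −0.09 for SKOV-3. Of all genes tested, 0.673% were past 2-fold for ES-2, made up of 0.162% higher and 0.51% lower. For OVCAR-3 the share was also 0.673%, made up of 0.29% higher and 0.383% lower, and for SKOV-3 it was 4%, made up of 2.34% higher and 1.66% lower. In ES-2, 3 genes had a lower difference than EDA2R, 17 a lower one than EMP2 and 33 a lower one than MID1, and in OVCAR-3 these numbers were 4, 7 and 14. MID2 was among the 9.54% of genes higher in all 3 lines, and by the smallest of its 3 differences it stood 13 in that order. The rule used this contrast, so these shares place the genes and show nothing further.

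**Figure D2:**
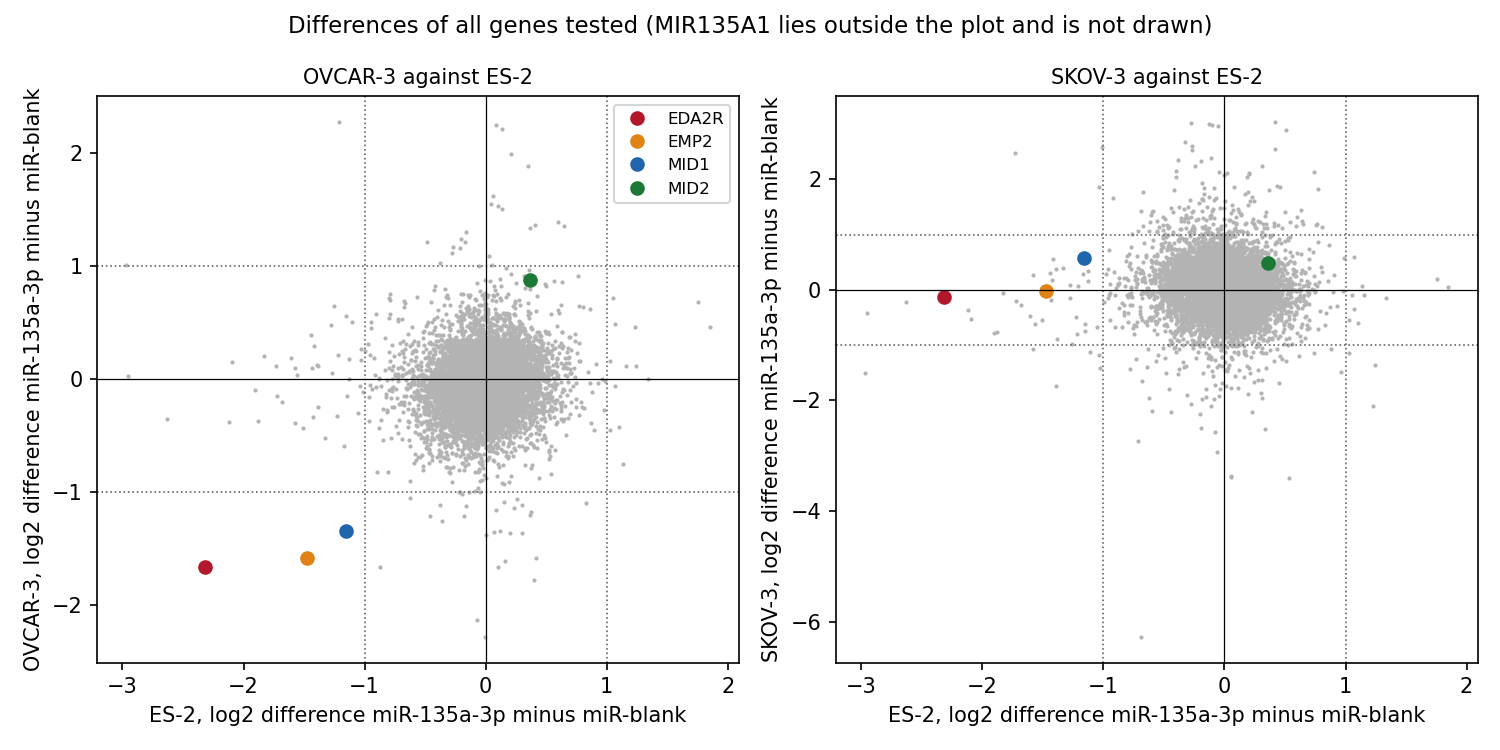
Log2 difference, miR-135a-3p minus miR-blank, of each gene tested in OVCAR-3 (left) and SKOV-3 (right) against ES-2, with the 4 genes in colour and dotted lines at 2-fold. EDA2R, EMP2 and MID1 are the only points past 2-fold in the lower left of the OVCAR-3 panel, and lie between −0.13 and 0.59 in SKOV-3.

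**Figure D3:**
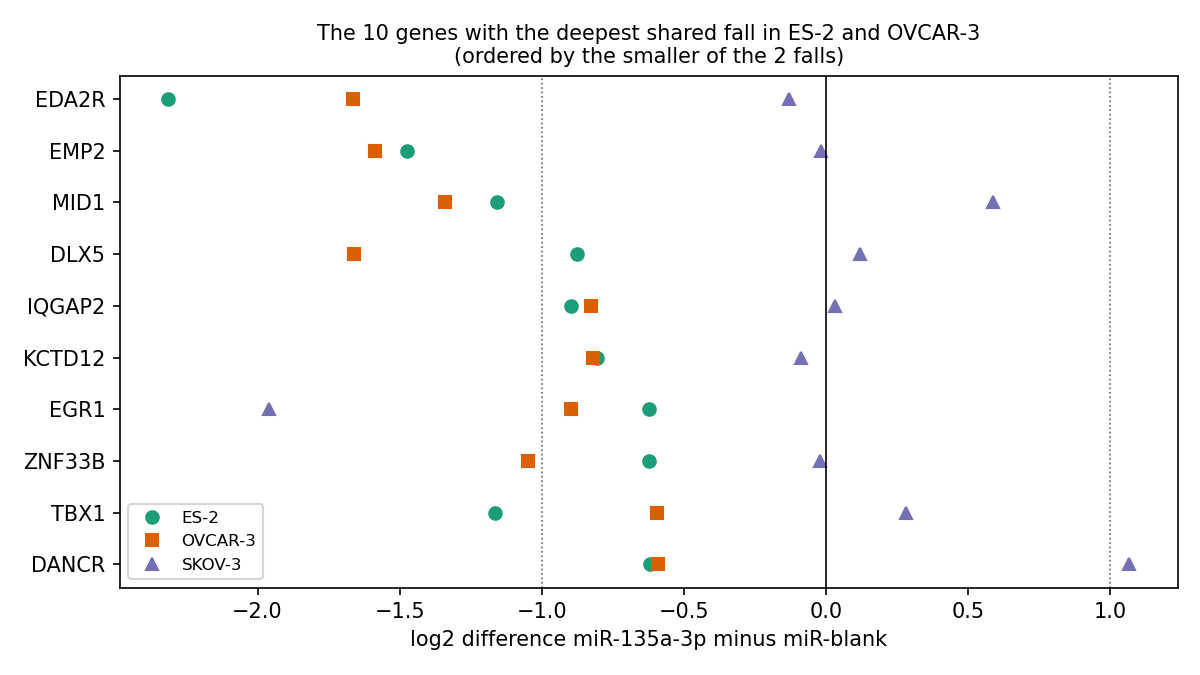
Log2 difference in each line (circles ES-2, squares OVCAR-3, triangles SKOV-3) of the 10 genes with the lowest differences shared by ES-2 and OVCAR-3, ordered by the smaller one. In SKOV-3, EGR1 is at −1.96 while the other 9 genes lie between −0.13 and 1.07.

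Averaged over both transfections, EMP2, MID1 and MID2 differed in level between lines, and EDA2R was called in no pair of them. The miR-135a-3p arrays are part of these averages, so contrasts with SKOV-3 also hold the unequal response on which the genes were chosen. The test was limma over all 8620 genes with the transfection as a block, and a call needed 2-fold or more together with an adjusted p under 0.05. Its error comes from how far both arrays of each line depart from the shared transfection effect, and so includes the unequal responses on which the genes were chosen. For ES-2 minus OVCAR-3, 3 of the 4 genes were called, MID1 and EMP2 higher (8.65% of all genes were called higher) and MID2 lower (7.82%), against 16.5% of all genes in either direction. For ES-2 minus SKOV-3, 1 was called lower, MID2 (7.29% of all genes, and 4.85% were called higher), against 12.1% either way. For OVCAR-3 minus SKOV-3, 2 were called lower, MID1 and EMP2 (8.96% of all genes, and 5.6% were called higher), against 14.6% either way.

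MID1 and MID2 ranked the lines in different orders. MID1 averaged 7.67 ± 0.82 for ES-2, 4.54 ± 0.95 for OVCAR-3 and 6.85 ± 0.41 for SKOV-3 (SD, n = 2 arrays each). The 2 arrays of a line are its 2 transfections, so each such SD reflects the transfection difference and not a spread of replicates. OVCAR-3 was thus the low line: ES-2 minus OVCAR-3 was 3.13 (SE 0.45, limma adjusted p 0.00329) and OVCAR-3 minus SKOV-3 was −2.31 (SE 0.45, limma adjusted p 0.0122). ES-2 and SKOV-3 were not called apart for MID1 (0.82, SE 0.45, limma adjusted p 0.243). On the miR-blank arrays alone, MID1 was at 1.69 for ES-2 minus SKOV-3 and −1.34 for OVCAR-3 minus SKOV-3. The miR-135a-3p arrays alone gave −0.05 and −3.27. ES-2 minus OVCAR-3 moved little for MID1, with 3.04 on the miR-blank arrays and 3.22 on the miR-135a-3p arrays. MID2 averaged 4.60 ± 0.26 for ES-2, 6.87 ± 0.62 for OVCAR-3 and 7.03 ± 0.34 for SKOV-3 (SD, n = 2 arrays each). Here ES-2 was the low line, at −2.27 against OVCAR-3 (SE 0.19, limma adjusted p 0.000343) and −2.43 against SKOV-3 (SE 0.19, limma adjusted p 0.000496). OVCAR-3 and SKOV-3 were not called apart for MID2 (−0.17, SE 0.19, limma adjusted p 0.560). The OVCAR-3 minus SKOV-3 call of MID1 was lost without the OVCAR-3 array with miR-135a-3p (−1.78, limma adjusted p 0.121).

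EMP2 ranked the lines as MID1 did after miR-blank, with ES-2 highest and OVCAR-3 lowest. Its means were 7.68 ± 1.04 for ES-2, 5.96 ± 1.12 for OVCAR-3 and 7.26 ± 0.01 for SKOV-3 (SD, n = 2 arrays each). These SDs again reflect the transfection difference of each line, so 0.01 for SKOV-3 is not tight replication. ES-2 was higher than OVCAR-3 by 1.72 (SE 0.38, limma adjusted p 0.0173), and OVCAR-3 was lower than SKOV-3 by a difference of −1.30 (SE 0.38, limma adjusted p 0.0488). ES-2 minus SKOV-3 was 0.42 (SE 0.38, limma adjusted p 0.478). On the miR-blank arrays alone, OVCAR-3 minus SKOV-3 was −0.52, under 2-fold, against −2.09 on the miR-135a-3p arrays alone. ES-2 minus SKOV-3 was 1.15 and −0.31 in the same order, and ES-2 minus OVCAR-3 was 1.67 and 1.78. Both calls of EMP2 were weak. The first was lost without the OVCAR-3 array with miR-135a-3p (1.30, limma adjusted p 0.159) and without the ES-2 array with miR-blank (1.39, limma adjusted p 0.0625). The second was lost without the OVCAR-3 array with miR-135a-3p (−0.88, limma adjusted p 0.328), the OVCAR-3 array with miR-blank (−1.72, limma adjusted p 0.0941) or the SKOV-3 array with miR-135a-3p (−0.55, limma adjusted p 0.0556). Without the SKOV-3 array with miR-135a-3p, the ES-2 minus SKOV-3 difference was 1.17 for EMP2 and 1.74 for MID1. That fit takes its error from ES-2 and OVCAR-3 alone, where both genes were chosen for lower signal. A call made there would show nothing further.

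EDA2R averaged 5.50 ± 1.64 for ES-2, 5.98 ± 1.18 for OVCAR-3 and 4.46 ± 0.09 for SKOV-3 (SD, n = 2 arrays each), and no pair of lines was called apart. OVCAR-3 minus SKOV-3 came nearest, at 1.52 (SE 0.47, limma adjusted p 0.0588). ES-2 minus SKOV-3 was 1.04 (SE 0.47, limma adjusted p 0.168) and ES-2 minus OVCAR-3 −0.48 (SE 0.47, limma adjusted p 0.492). The last of these turned to 0.23 without the ES-2 array with miR-135a-3p and was −1.19 without the ES-2 array with miR-blank. The wide spread within ES-2 and OVCAR-3 is the transfection difference itself. On the miR-135a-3p arrays alone, ES-2 minus SKOV-3 was −0.06 and OVCAR-3 minus SKOV-3 0.75, against 2.13 and 2.28 on the miR-blank arrays alone. OVCAR-3 minus SKOV-3 stayed at 1.52 without either ES-2 array and was 2.45 without the SKOV-3 array with miR-135a-3p. ES-2 minus SKOV-3 was 1.74 without the ES-2 array with miR-135a-3p and 1.96 without the SKOV-3 array with miR-135a-3p. Each of these fits leaves a line with a single array and takes its error from the other lines only. A call made there would show nothing further.

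**Figure D4:**
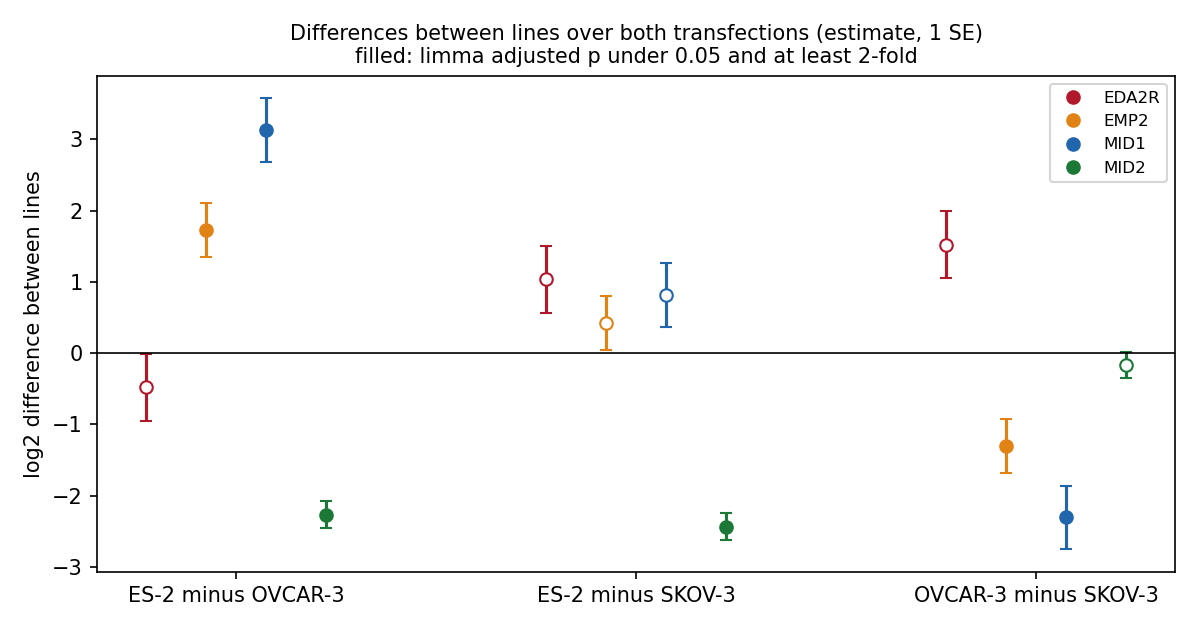
Log2 difference between lines over both transfections (points, limma estimate; bars, 1 SE) for the 4 genes, with filled points where the call was made. MID1 is at 3.13 and MID2 at −2.27 in ES-2 minus OVCAR-3, and none of the EDA2R points is filled.

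The signals of the 4 genes were also compared over the 6 arrays, which share 3 lines and are not independent points. These signals also hold the differences on which the genes were chosen, so part of each r among the 4 genes was set by the choice. EMP2 and MID1 followed each other at a Pearson r of 0.94, among 3353 genes whose signals span at least 2-fold. MID1 was number 4 in the order of EMP2, and EMP2 was number 74 in that of MID1. EDA2R followed neither EMP2 (r = 0.24) nor MID1 (r = −0.04), and of the 3 genes EDA2R alone was near the array median in SKOV-3. MID2 had r = −0.62 with EMP2 and r = −0.65 with MID1. The genes nearest to MID1 by this measure were MDFIC (0.99) and the kinase CDK17 (0.99), those nearest to EMP2 were LBHD1 (0.96) and LURAP1L (0.95), and those nearest to MID2 were RIBC2 (0.99) and the adhesion protein neuroplastin, NPTN (0.99). The translation factor EIF5A was nearest to EDA2R (0.93), and read 5.61 for ES-2, 5.86 for OVCAR-3 and 5.67 for SKOV-3 after miR-135a-3p, against 6.12, 6.63 and 5.60 after miR-blank.

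Likeness of the response was measured as the Euclidean distance over the 3 differences, on the log2 scale. The genes were chosen on these same differences, so the nearness of EDA2R, EMP2 and MID1 to each other was set by the choice. Among 8619 genes, EMP2 was number 1 and MID1 number 4 in the order of EDA2R (0.85 and 1.40), while EDA2R was number 3 in the order of EMP2 and number 399 in that of MID1. DLX5 was nearest to both EMP2 (0.62) and MID1 (0.63), and EMP2 and MID1 were number 2 for each other at 0.73. TBX1, a T-box factor, was number 4 for MID1 (0.81), at −1.17 for ES-2, −0.59 for OVCAR-3 and 0.28 for SKOV-3. The deubiquitinase STAMBPL1 was number 5 (0.81), with −0.38, −1.11 and 0.53. The gene nearest to MID2 was NDRG1, a stress-responsive gene, at a distance of 0.06, at 0.32 for ES-2, 0.91 for OVCAR-3 and 0.48 for SKOV-3. The receptor CALCRL (0.15) and the kinase NEK11 (0.24) also lay near MID2, though CALCRL read below the array medians in ES-2 and SKOV-3.

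Genes around the 4 loci were examined as the 5 nearest protein-coding genes on the array on each side, in RefSeq order. EDA2R, MID1 and MID2 lie apart from each other on the X chromosome and EMP2 lies on chromosome 16. Of 40 neighbours 20 were tested, and 2 of these were past 2-fold in a line, as were 4.94% of all genes tested. One was ATF7IP2, a chromatin regulator and the gene next to EMP2, which read 3.41 for ES-2, 7.93 for OVCAR-3 and 6.24 for SKOV-3 after miR-135a-3p, against 6.36, 7.89 and 6.65 after miR-blank. Its differences were −2.95, 0.03 and −0.41, so it was lower than EMP2 in ES-2 and near 0 in OVCAR-3. On the ES-2 array with miR-135a-3p, ATF7IP2 lay below the array median, which leaves the size of the ES-2 difference uncertain. NUBP1, an iron-sulphur cluster assembly factor on the other side of EMP2, was at −0.96 for ES-2, −0.37 for OVCAR-3 and 0.39 for SKOV-3. The other was MORC4, near MID2, with −0.42, 0.22 and −1.05. Around EDA2R the tested neighbours LAS1L, MSN and EFNB1 ranged from −0.74 to 0.50. HCCS, the gene next to MID1, was at −0.03 for ES-2, −0.07 for OVCAR-3 and 0.65 for SKOV-3.

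The pathways of the 4 genes were read from 7 lists of 122 genes, of which 60 were named on the array and 47 tested. limma, with the cell line as a block, called 0 of the 47 for the transfection, where it called 0.0116% of all genes (MIR135A1 alone). At an unadjusted p under 0.05 there were 2, the p53 targets TP53INP1 and BAX, against 251 of all genes tested. Over all genes tested, the median of the mean differences was −0.01, 9.54% were higher in all 3 lines and 13.4% were lower in all 3.

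In the EDA and NF-kB list, 14 of 23 genes were tested, 1 was higher and 4 were lower in all 3 lines, and the median of the mean differences was −0.11. The ligand EDA read between 4.70 and 4.81 and the receptor EDAR between 3.34 and 4.23 on all arrays, near or below the medians. The death domain adaptor of EDAR, EDARADD, read 5.50 for ES-2, 9.67 for OVCAR-3 and 6.37 for SKOV-3 after miR-135a-3p, against 5.38, 9.72 and 5.62 after miR-blank. ES-2 minus OVCAR-3 was −4.26 for EDARADD (limma adjusted p 6.77e-05) and OVCAR-3 minus SKOV-3 was 3.70 (limma adjusted p 0.000159). The kinase IKK-alpha, CHUK, was low in SKOV-3 under both transfections. It read 7.24 for ES-2, 7.71 for OVCAR-3 and 3.82 for SKOV-3 after miR-135a-3p, against 7.50, 7.88 and 3.93 after miR-blank. OVCAR-3 minus SKOV-3 was 3.92 for CHUK (limma adjusted p 4.46e-05). Both SKOV-3 signals of CHUK lay below the array medians, which leaves the size of this difference uncertain. NFKB1, with −0.14, −0.40 and −0.0044, and the kinase MAP3K7, with −0.02, −0.06 and −0.56, were the other members with the largest mean differences of 1 sign. Of the TNF receptor superfamily list, 4 of 28 genes were named and 2 tested, RELT and NGFR, with a median of −0.09.

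Of the p53 target list, to which EDA2R belongs by its known regulation, 12 of 25 genes were tested with a median of −0.02. The number past 2-fold was 0 for ES-2, 0 for OVCAR-3 and 3 for SKOV-3, all lower, where 1.66% of all genes were 2-fold lower. The median of the list in SKOV-3 was 0.15, with the oxidoreductase TP53I3 at 0.95 and the nuclease AEN at 0.85. TP53INP1, a p53-induced nuclear protein, was at −0.56 for ES-2, −0.17 for OVCAR-3 and −0.80 for SKOV-3, and the apoptosis effector BAX had −0.26, −0.33 and −0.37. The 3 genes past 2-fold in SKOV-3 were the cytokine GDF15 (−1.20), the apoptosis gene BBC3 (−1.02) and cyclin G1, CCNG1 (−1.12). CCNG1 had 0.08 in ES-2 and 0.07 in OVCAR-3, where EDA2R was at −2.31 and −1.66. SESN1, an antioxidant regulator, had 0.06, 0.23 and 0.18.

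Of the relatives of EMP2, EMP1 and EMP3 lay nearer to 0 than EMP2 in ES-2 and OVCAR-3. In the PMP22 and EMP list 4 of 10 genes were tested, with a median of −0.02, and 0 were past 2-fold. EMP1 was at −0.09 for ES-2, −0.35 for OVCAR-3 and 0.17 for SKOV-3, and EMP3 had −0.12, −0.27 and 0.02. EMP1 was, like EMP2, called higher for ES-2 than for OVCAR-3 (2.10, limma adjusted p 0.000456), and also than for SKOV-3 (2.11, limma adjusted p 0.000885). TMEM47, below the filter, was at −0.79 for ES-2, 0.05 for OVCAR-3 and −1.91 for SKOV-3. Among 4 tested partners of EMP2, with a median of −0.05, the caveola coat protein CAVIN1 had 0.04, 0.11 and 0.31 and focal adhesion kinase, PTK2, had −0.01, 0.06 and −0.03.

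Of the COS box list, the microtubule-binding relatives of MID1 and MID2, 4 of 10 genes were tested with a median of −0.03. TRIM55, a muscle ring finger protein, was at 0.11 for ES-2, 0.15 for OVCAR-3 and −1.11 for SKOV-3. ES-2 minus OVCAR-3 was 6.03 for TRIM55 (limma adjusted p 6.77e-05). Both OVCAR-3 signals of TRIM55 lay below the array medians, which leaves the size of this difference uncertain. Of the midline partner list, 8 of 20 genes were tested, 3 were lower and 0 higher in all 3 lines, and the median was −0.13. MID1IP1, which stabilises microtubules with MID1, had −0.05 for ES-2, −0.39 for OVCAR-3 and −1.02 for SKOV-3. The alpha4 protein IGBP1 had −0.11, −0.09 and 0.11. The hedgehog transcription factor GLI3 read 7.29 for ES-2, 4.34 for OVCAR-3 and 6.44 for SKOV-3 after miR-135a-3p, against 7.32, 4.64 and 6.64 after miR-blank. GLI3 thus had OVCAR-3 as its low line, as MID1 did, with ES-2 minus OVCAR-3 of 2.81 (limma adjusted p 8.97e-05) and OVCAR-3 minus SKOV-3 of −2.05 (limma adjusted p 0.000429). MTOR had −0.02, −0.12 and −0.26.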

How the data were processed

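Gene expression was measured on 6 Affymetrix arrays. Total RNA from a column kit was turned into labelled cDNA with a whole-transcript kit, per the labels' protocols. For each array the authors deposited a log2 signal for each of 53617 probe sets. The submitters' processing notes list the Affymetrix programs Transcriptome Analysis Console 3.0 and Expression Console 1.4 beside RMA, without saying what each did. RMA equalises probe intensities over the arrays before it summarises them, so a shift that most genes share is largely taken out. That the scale is log2 was taken from the range of the deposited values, and no centring by gene was seen.

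The platform annotation gave 1 symbol to 16098 probe sets, and the other 37519, without a single symbol, were left out of the gene table. All 16098 were found by Entrez identifier in RefSeq's GRCh38.p14 gene table, used for names and gene order. This left 14884 genes, and for the 779 with several probe sets the brightest on average was used. The 8620 genes whose mean log2 signal reached 5 were fitted by limma 3.58.1 under R 4.3.3 with moderated two-sided tests and Benjamini-Hochberg adjustment over all of them. Lines were compared with transfection as a block, and transfections with line as a block. Both arrays of a line form a pair by sharing that line. Their deviations from the group means correlated at 0.76 for SKOV-3, 0.90 for ES-2 and 0.91 for OVCAR-3. With a single array for each line and transfection, p-values between lines may reflect technical scatter only, and precision is limited by how few arrays there are. The fits were tested on simulated data with 200 changed genes among 8620, at an adjusted p under 0.05. The ES-2 minus OVCAR-3 fit recovered 0% of changes of 1 log2 unit and 98.5% of changes of 2, with 0 and 13 false calls. The transfection fit recovered 60% and 97%, with 5 and 4 false calls. The simulated lines did not respond unequally, as the 4 genes did. Lines not called apart were therefore not shown to be alike.

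The genes, lists and tests were chosen with earlier results of these data known. From each list, genes past 2-fold in a line and up to 3 with 1 sign in all lines and the largest mean difference were named, with the 5 likest genes per member by each measure, of which some are printed, and neighbours past 2-fold or adjacent. Other genes were named for their role after their values were seen. Alternatives were cyclic loess, quantile or median scaling, a filter at 6 or none, an intensity trend, averaging probe sets, dropping the block, and leaving out each array or line.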

Additional observations from a re-analysis of the deposited data

Results flagged for a closer look

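Among the 4 genes and 47 list genes tested, 3 were at least 0.5 higher in 1 line and at least 0.5 lower in another on the log2 scale, a limit chosen after the values were seen. Of all genes tested 2.61% did so. MID1 was at −1.34 for OVCAR-3 and at 0.59 for SKOV-3. The p53 targets GDF15, at 0.66 for OVCAR-3 and −1.20 for SKOV-3, and TP53I3, with −0.51 in ES-2 and 0.95 in SKOV-3, were the others. The differences between lines were not tested, because a line holds a single array for each transfection, and MID1 was chosen for its pattern.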

How the results depend on the processing

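Under cyclic loess, quantile or median scaling, each difference after transfection within a line kept its sign for EDA2R, MID1 and MID2. The filter, trend and block cannot change such a difference. Nor can the probe set rule for these genes, which have 1 probe set each. EMP2 in SKOV-3, near 0, ran from −0.04 to 0.02. With a mean of at least 6, EDA2R fell below the filter and has no value. The calls of MID1 between ES-2 and OVCAR-3 and of MID2 between ES-2 and either other line held in all 14 alternatives. EMP2 between OVCAR-3 and SKOV-3 was not called without a filter (−1.30, limma adjusted p 0.0667), at equal medians (−1.33, limma adjusted p 0.0532), after quantile (−1.31, limma adjusted p 0.0512) or cyclic loess normalization (−1.34, limma adjusted p 0.0506), or without the replicate block (−1.30, limma adjusted p 0.140). Without the block EMP2 was also not called between ES-2 and OVCAR-3 (1.72, limma adjusted p 0.0597). Leaving out 1 array in turn, ES-2 minus OVCAR-3 ran from −1.19 to 0.23 for EDA2R and 1.30 to 2.14 for EMP2, and ES-2 minus SKOV-3 from 0.11 to 1.96 for EDA2R, −0.34 to 1.17 for EMP2 and −0.10 to 1.74 for MID1. OVCAR-3 minus SKOV-3 ran from 0.59 to 2.45 for EDA2R, −2.06 to −0.55 for EMP2 and −3.22 to −1.39 for MID1, and all genes called there numbered 808 to 1409 against 1255. Leaving out 1 line, the transfection called 1 to 4 genes, the 4 being without SKOV-3, and 0 list genes under every alternative. Signals near or below the array median limit EDA2R in SKOV-3 and, after miR-135a-3p, in ES-2, MID1 and the dimmer EMP2 probe set in OVCAR-3, and MID2 in ES-2.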
